A study of Oryza sativa with 5 samples.

Results

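The root transcriptomes of nontransgenic (NT) rice of the cultivar Hwayoung were compared with those of NT rice of the cultivar Nipponbare, both japonica cultivars of Oryza sativa. The 2 libraries were taken from a series of 5, each made from roots of seedlings aged 2 weeks, with 1 library per genotype. NT (Hwayoung) is the control of nac6, a T-DNA insertion mutant of the transcription factor gene OsNAC6 in the Hwayoung background. NT (Nipponbare) is the control of 2 OsNAC6 overexpressors in the Nipponbare background, RCc3::OsNAC6, driven by the root promoter of RCc3, and GOS2::OsNAC6, driven by the promoter of GOS2, which is active in the whole plant. All seedlings were grown under normal growth conditions without a stress treatment. Because the controls of the mutant and of the overexpressors differ in cultivar, the question here was how far the cultivars alone differ.

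Reads of each transcript were scaled to RPM, the reads per 1000000 reads assigned in the library, and a ratio was taken as log2 of (NT (Hwayoung) + 1) over (NT (Nipponbare) + 1) where the mean of both was at least 1 RPM. A transcript is called higher or lower where this ratio is at least 2-fold. The pseudocount of 1 RPM understates the ratio of low transcripts. A fold printed beside a ratio is taken from RPM without the pseudocount, so it is the larger of the pair. With 1 library per cultivar there is no replicate check and no p-value, and a difference of these 2 libraries cannot be told apart from one of pot, growth or library preparation. The error given after ± is the counting error of the ratio (SE) and covers counting only. The reads were assigned to the Nipponbare genome, so a lower Hwayoung level and a Hwayoung allele whose reads were not assigned cannot be told apart. Likewise, in bulk roots fewer cells of a type and less RNA per cell cannot be told apart.

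The NT (Hwayoung) library held 23573249 assigned reads and the NT (Nipponbare) library 26838552, and the other 3 libraries held between 22909719 and 25930687. A read was seen for 38087 transcripts in NT (Hwayoung) and 38939 in NT (Nipponbare), with 37166 in both. The label of tissue was checked with RCc3, a gene of root tissue, which had 4856 reads in NT (Hwayoung) and 17109 in NT (Nipponbare). The 90 transcripts annotated as photosystem, chlorophyll-binding or Rubisco summed to only 149 RPM in NT (Hwayoung) and 102 in NT (Nipponbare). OsNAC6 itself did not follow the labels of the other 3 libraries: it had 8215 reads in the nac6-labelled library, 7600 in NT (Hwayoung), 6050 in the RCc3::OsNAC6-labelled one, 6675 in the GOS2::OsNAC6-labelled one and 6215 in NT (Nipponbare). Those 3 libraries are therefore named by their labels only, and they enter no ratio of Hwayoung to Nipponbare.

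Of 31273 transcripts tested, 2139 (6.84%) were higher and 3687 (11.8%) lower in NT (Hwayoung), and 25447 (81.4%) were neither. Summed over the isoforms of each locus, 1887 of 25617 loci were higher (7.37%) and 3312 lower (12.9%). The median ratio of all transcripts was -0.19 on the log2 scale, so the balance leaned to the lower side before any single gene was considered. When the libraries were scaled instead by the median of ratios, which shifts all transcripts by 0.14 on the log2 scale, 2487 were higher and 3069 lower, which moved the higher share of calls to 44.8% against 36.7%. At larger sizes the balance turned: 826 were higher and 669 lower by 4-fold, and 224 higher and 77 lower by 16-fold. The higher set was also the more heavily expressed. It summed to 170341 RPM in NT (Hwayoung) and 35644.9 in NT (Nipponbare), whereas the lower set summed to 39471.4 in NT (Hwayoung) and 121524 in NT (Nipponbare).

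Plant roots in waterlogged soil run short of oxygen, and they then regenerate NAD+ by fermenting pyruvate to ethanol through pyruvate decarboxylase and alcohol dehydrogenase. Rice is known for a strong fermentative response, in which pyrophosphate-dependent enzymes spare ATP and non-symbiotic hemoglobins bind nitric oxide. Roots also carry standing and inducible defences: chitinases and glucanases that attack microbial walls, phenylpropanoids, diterpenoid phytoalexins and intracellular immune receptors with an NB-ARC domain. Several transcripts of both kinds were among the most abundant in NT (Hwayoung) and scarce in NT (Nipponbare).

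The 20 most abundant transcripts of the cultivars shared only 6 members. Those of NT (Hwayoung) came from 17 loci, since isoforms of phenylalanine ammonia-lyase and of aldolase C-1 were counted apart. Those of NT (Nipponbare) came from 20. The top 20 of NT (Hwayoung) took 4.18% of its reads and 1.26% of those of NT (Nipponbare), and 15 of them were called higher and 0 lower. The top 20 of NT (Nipponbare) took 2.25% of the reads of NT (Hwayoung) and 2.51% of its own, with 1 called higher and 7 lower. Phenylalanine ammonia-lyase (Os02t0626100-01), the entry enzyme of phenylpropanoid synthesis, ranked 1 with 105483 reads in NT (Hwayoung) and 3 with 41426 reads in NT (Nipponbare). Behind it in NT (Hwayoung) stood a DUF26 protein (Os04t0659300-01) with 78862 reads, against 5571 reads and rank 549 in NT (Nipponbare). A cupredoxin-domain protein (Os11t0428800-01) followed with 73395 reads in NT (Hwayoung) and 6643 in NT (Nipponbare). Among the most uneven members was pyruvate, phosphate dikinase (Os03t0432100-01), which interconverts pyruvate and phosphoenolpyruvate: it ranked 5 in NT (Hwayoung) with 67397 reads and 18364 in NT (Nipponbare) with 241.

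**Figure D1:**
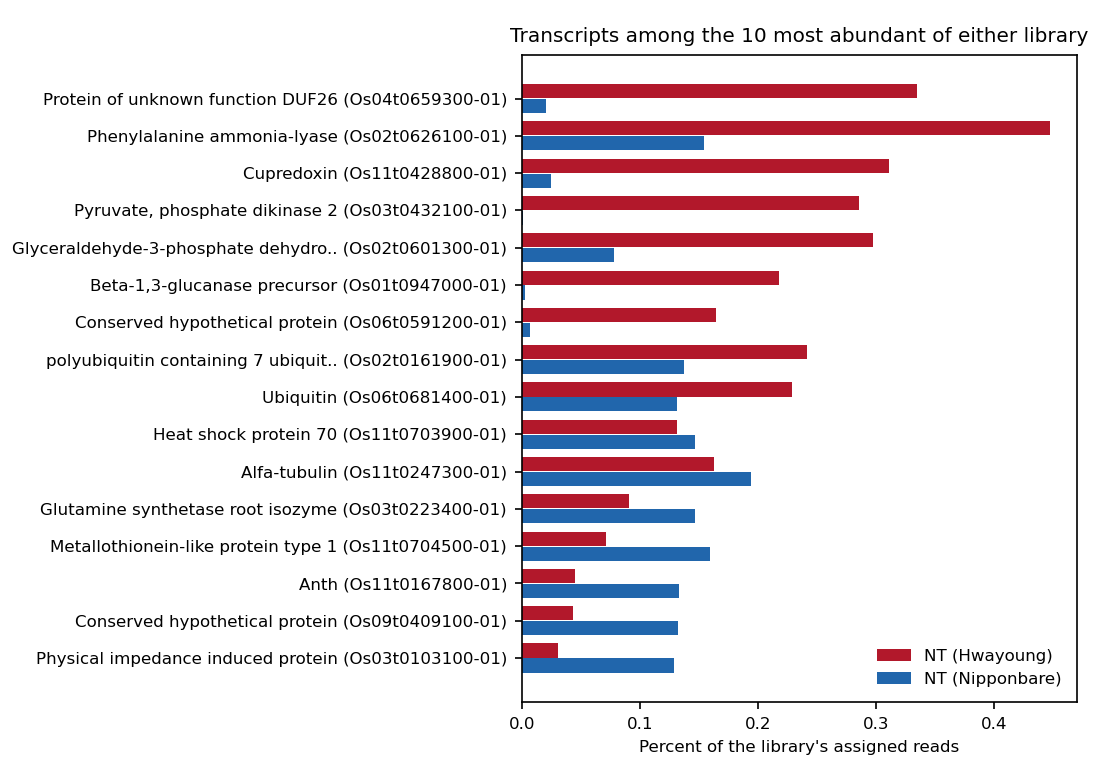
Share of each library's assigned reads, in percent, taken by the transcripts among the 10 most abundant of either NT library, with NT (Hwayoung) in red above NT (Nipponbare) in blue. Pyruvate, phosphate dikinase and beta-1,3-glucanase are all but invisible in NT (Nipponbare), with 241 and 731 reads, while ubiquitin, heat shock protein 70 and tubulin stand high in both.

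The most abundant transcripts of NT (Nipponbare) were of several kinds. Alpha-tubulin (Os11t0247300-01), a subunit of microtubules, had 38466 reads in NT (Hwayoung) and 52016 in NT (Nipponbare), where it ranked 1, and its ratio of -0.25 ± 0.01 was well inside 2-fold. A type 1 metallothionein (Os11t0704500-01), a small metal-binding protein, had 16858 reads in NT (Hwayoung) and 42694 in NT (Nipponbare), a ratio of -1.15 ± 0.02. A transcript annotated as induced by physical impedance (Os03t0103100-01) had 7252 reads in NT (Hwayoung) and 34640 in NT (Nipponbare), a ratio of -2.07 ± 0.03. The 2 ubiquitin transcripts of the top 10 in both cultivars moved together without reaching the call, Os02t0161900-01 at 0.81 ± 0.01 and Os06t0681400-01, which encodes UBIQUITIN 1, at 0.80 ± 0.01. UBIQUITIN 1 had 53927 reads in NT (Hwayoung) and 35297 in NT (Nipponbare).

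Fermentation genes gave several of the largest ratios. Of the 10 transcripts with the largest positive ratio among those with a mean of at least 10 RPM, 2 were pyruvate decarboxylases. Os05t0469600-01 had 15695 reads in NT (Hwayoung) and 24 in NT (Nipponbare), a ratio of 8.46 ± 0.20, and 747-fold without the pseudocount. Its neighbour Os05t0469800-00 had 16254 in NT (Hwayoung) and 48 in NT (Nipponbare), a ratio of 7.95 ± 0.19. A hypothetical transcript that lies between them by locus number (Os05g0469701) was also higher, at 7.59, so all 3 loci of the run were; the last may share reads with the decarboxylases.

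Alcohol dehydrogenase, which turns acetaldehyde into ethanol, came from 3 neighbouring loci on chromosome 11, all higher. Alcohol dehydrogenase 1 (Os11t0210300-01) had 18747 reads in NT (Hwayoung) and 622 in NT (Nipponbare), a ratio of 5.04 ± 0.08, and 34.3-fold without the pseudocount. Os11t0210500-01 had 34010 in NT (Hwayoung) and 2116 in NT (Nipponbare), a ratio of 4.18 ± 0.05, and 18.3-fold without the pseudocount. Both of these transcripts thus had an appreciable level in both cultivars, unlike pyruvate decarboxylase. The remaining locus was scarce in NT (Nipponbare): Os11t0210600-01 had 312 reads in NT (Hwayoung) and 26 in NT (Nipponbare), a ratio of 2.85 ± 0.22. Over the whole list of pyruvate decarboxylases, lactate dehydrogenases and alcohol dehydrogenases, 18 of 47 tested members were higher (38.3%) and 6 lower (12.8%), with a median of 0.13. The shares over all transcripts were 6.84% higher and 11.8% lower. The lower members included alcohol dehydrogenase relatives outside ethanol fermentation, such as one annotated as sinapyl alcohol dehydrogenase (Os04t0229100-01, 245 reads in NT (Hwayoung) and 1801 in NT (Nipponbare)).

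Pyrophosphate-dependent enzymes were split by gene. A proton-pumping pyrophosphatase (Os02t0802500-01), which acidifies the vacuole at the cost of pyrophosphate in place of ATP, had 34681 reads in NT (Hwayoung) and 243 in NT (Nipponbare), a ratio of 7.19 ± 0.12. A second vacuolar pyrophosphatase (Ovp2, Os06t0178900-01) went the other way, with 3132 reads in NT (Hwayoung) and 7810 in NT (Nipponbare), a ratio of -1.13 ± 0.04. Over the list of pyrophosphatases and phosphoenolpyruvate enzymes, 7 of 48 were higher (14.6%) and 9 lower (18.8%), with a median of -0.28. Over all transcripts the shares were 6.84% higher and 11.8% lower. Because of a few very abundant members, the list still summed to 7868 RPM in NT (Hwayoung) and 3026 in NT (Nipponbare).

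In glycolysis, which feeds fermentation, the abundant forms were higher: cytosolic glyceraldehyde-3-phosphate dehydrogenase (Os02t0601300-01) had 70013 reads in NT (Hwayoung) and 20891 in NT (Nipponbare), a ratio of 1.93 ± 0.02. Aldolase C-1 (Os01t0905800-01) had 34496 in NT (Hwayoung) and 11142 in NT (Nipponbare), a ratio of 1.82 ± 0.02. The list as a whole had a median of -0.03, with 19 of 113 members higher (16.8%) and 15 lower (13.3%). The higher share was well above the 6.84% over all transcripts, and the lower share was near the 11.8%.

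Hemoglobins, an AP2-domain factor and early nodulins were examined next. Non-symbiotic hemoglobin 2 (Os03t0226200-01) had 3911 reads in NT (Hwayoung) and 38 in NT (Nipponbare), a ratio of 6.10 ± 0.20. Hemoglobin 1 (Os03t0233900-01) had 1546 in NT (Hwayoung) and 44 in NT (Nipponbare), a ratio of 4.65 ± 0.20. Both were called, while the remaining 1 of the 3 hemoglobin transcripts tested was not. An AP2-domain factor (Os03t0341000-01) was annotated as similar to RAP2.2, a family that in Arabidopsis activates low-oxygen genes. It had 6026 reads in NT (Hwayoung) and 150 in NT (Nipponbare), a ratio of 5.28 ± 0.14, and 45.7-fold without the pseudocount. Early nodulin transcripts of chromosome 6 were nearly confined to NT (Hwayoung): of 7 family members tested, 6 were higher and 1 was not called, with a median of 7.42. Os06t0142400-01 had 8071 reads in NT (Hwayoung) and 8 in NT (Nipponbare), and Os06t0142300-00 had 9814 in NT (Hwayoung) and 24 in NT (Nipponbare). These family members carry the same annotation and may share reads.

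**Figure D2:**
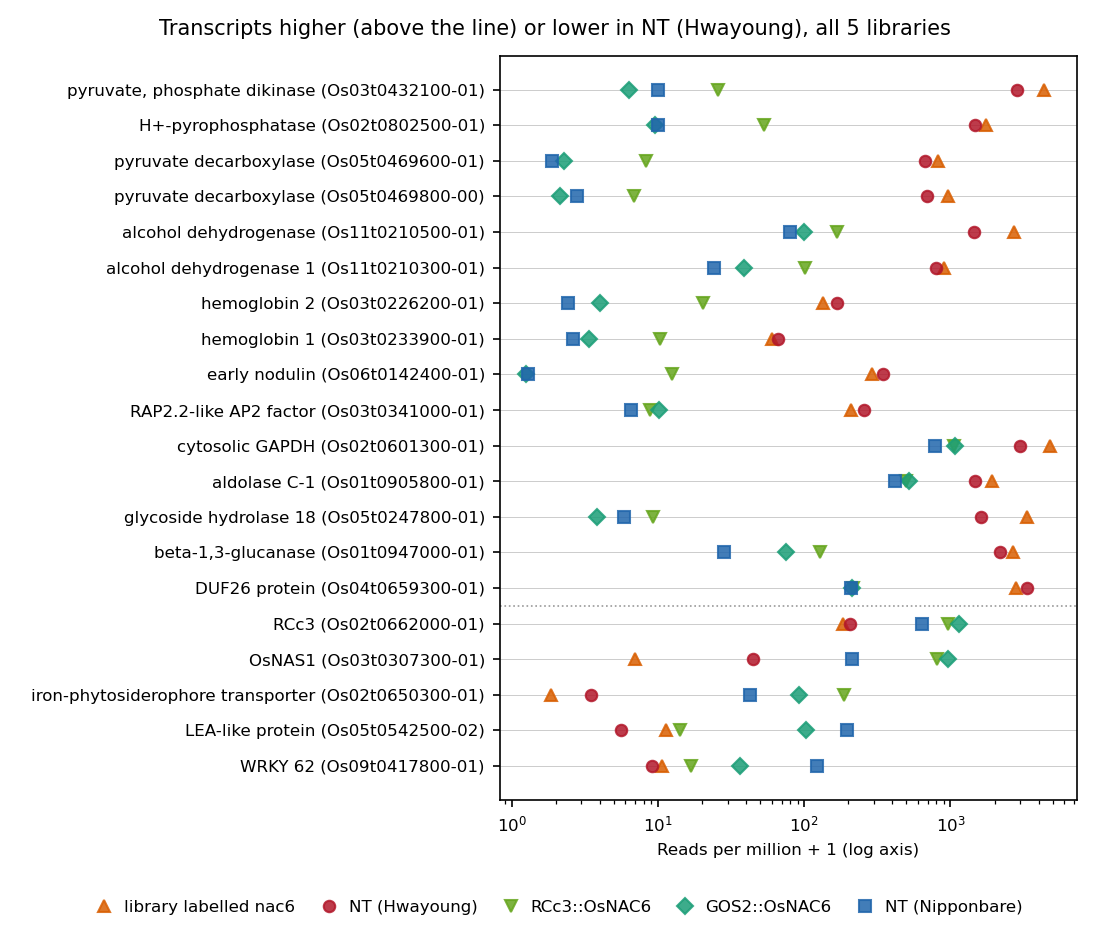
RPM plus 1 (log axis) of 20 transcripts in all 5 libraries, 1 point per library; the dotted line parts those higher in NT (Hwayoung), above, from those lower, below. NT (Hwayoung) lies beside the nac6-labelled library, and NT (Nipponbare) beside both overexpressor-labelled libraries, in most of these transcripts, as for pyruvate, phosphate dikinase at 67397 and 100510 reads against 646, 129 and 241.

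Defence transcripts were called in both directions. Among chitinases, glucanases, thaumatins, germins and other pathogenesis-related proteins, 40 of 128 were higher (31.3%) and 25 lower (19.5%). Both shares were above those over all transcripts, 6.84% and 11.8%. The list summed to 10939 RPM in NT (Hwayoung) and 5058 in NT (Nipponbare), while its median was -0.03. A beta-1,3-glucanase (Os01t0947000-01) had 51441 reads in NT (Hwayoung) and 731 in NT (Nipponbare), a ratio of 6.27 ± 0.07. Chitinase 1 (Os10t0416500-04) had 16260 in NT (Hwayoung) and 1622 in NT (Nipponbare), a ratio of 3.49 ± 0.05. Not every such protein followed: an acidic class III chitinase (OsChib3a, Os01t0660200-01) had 1270 reads in NT (Hwayoung) and 7606 in NT (Nipponbare), a ratio of -2.37 ± 0.06. A Bowman-Birk proteinase inhibitor (Os01t0127600-01) had 5031 in NT (Hwayoung) and 12571 in NT (Nipponbare).

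Glycoside hydrolases of the family that holds the class III chitinases gave some of the largest ratios. Os05t0247800-01 had 38330 reads in NT (Hwayoung) and 130 in NT (Nipponbare), a ratio of 8.12 ± 0.15. Os05t0248200-01 had 11443 in NT (Hwayoung) and 4 in NT (Nipponbare), a ratio of 8.72 ± 0.13. Their neighbour Os05g0247100, also annotated as a chitinase, was not called, at -0.95, so adjacent genes of this family stood on both sides of zero. Proteins with a DUF26 domain, a cysteine-rich fold of secreted and receptor proteins, were higher in 9 of 16 cases (56.3%, against 6.84% over all transcripts). They were lower in 1, with a median of 2.86, and summed to 4541 RPM in NT (Hwayoung) and 267 in NT (Nipponbare). A run of 8 loci on chromosome 8, Os08g0136300 to Os08g0136800, was higher throughout. It mixed DUF26 proteins with loci of other annotation, among them hypothetical and non-protein coding ones. In it Os08t0136700-01 had 6344 reads in NT (Hwayoung) and 3 in NT (Nipponbare), and Os08t0136800-01 had 3427 in NT (Hwayoung) and 0 in NT (Nipponbare), at least 1301-fold higher when the 0 is set to the floor of 3 reads per library.

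Diterpenoid synthesis was higher in nearly every member that was called: 10 of 17 transcripts were higher (58.8%, against 6.84% over all transcripts) and 1 lower. The median was 1.61 and the sum 1423 RPM in NT (Hwayoung) and 140 in NT (Nipponbare). Syn-copalyl diphosphate synthase (Os04t0178300-02), which opens the route to momilactone phytoalexins, had 11014 reads in NT (Hwayoung) and 1100 in NT (Nipponbare), a ratio of 3.48 ± 0.06. The cytochrome P450 at the adjacent locus (CYP99A1, Os04t0178400-01) had 4526 in NT (Hwayoung) and 413 in NT (Nipponbare), a ratio of 3.56 ± 0.10. An ent-kaurene oxidase (Os06t0569500-01) had 5357 in NT (Hwayoung) and 170 in NT (Nipponbare), a ratio of 4.96 ± 0.14. A second ent-kaurene oxidase, Os06t0570600-00, was the lower one, with 2 reads in NT (Hwayoung) and 67 in NT (Nipponbare).

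Oxylipin and phenylpropanoid genes were divided. Lipoxygenases and jasmonate-related transcripts were higher in 18 of 54 cases (33.3%) and lower in 9 (16.7%). The lipoxygenase Os10t0361000-01 had 5787 reads in NT (Hwayoung) and 36 in NT (Nipponbare), a ratio of 6.72 ± 0.20, whereas lipoxygenase L-2 (Os03t0738600-01) had 3300 in NT (Hwayoung) and 7671 in NT (Nipponbare), a ratio of -1.02 ± 0.04. Of 88 phenylpropanoid and lignin transcripts, 25 were higher (28.4%) and 17 lower (19.3%), and the median was 0.00. Chalcone synthase (Os07t0501100-01), the first enzyme of flavonoid synthesis, had 9394 reads in NT (Hwayoung) and 13 in NT (Nipponbare). Its ratio was 8.07 ± 0.19, and 817-fold without the pseudocount. A laccase (Os01t0827300-01), one of the oxidases that polymerise lignin, had 1422 in NT (Hwayoung) and 3484 in NT (Nipponbare). Class III peroxidases were called in similar numbers in both directions, with 34 of 140 higher (24.3%) and 37 lower (26.4%). So were cytochromes P450, with 39 of 165 higher (23.6%) and 36 lower (21.8%). These shares were all above those over all transcripts, 6.84% higher and 11.8% lower. The P450 with the highest level among the lower ones (Os09t0441400-01), annotated as elicitor-inducible, had 2915 reads in NT (Hwayoung) and 26893 in NT (Nipponbare), a ratio of -3.01 ± 0.04.

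Among the AP2/ERF, WRKY, MYB, bHLH and NAC factors, only AP2/ERF had more members higher than lower. It had 18 of 66 higher (27.3%), 6 lower (9.09%) and a median of 0.38. Over all transcripts the shares were 6.84% higher and 11.8% lower. An ethylene responsive element binding factor (Os03t0182800-01) had 12657 reads in NT (Hwayoung) and 2413 in NT (Nipponbare), a ratio of 2.56 ± 0.04. WRKY factors, regulators of defence, were higher in 14 of 85 cases (16.5%) and lower in 15 (17.6%), both above those shares. WRKY10 (Os05t0537100-00) had 1905 reads in NT (Hwayoung) and 443 in NT (Nipponbare). By contrast, WRKY62 (Os09t0417800-01) had 189 in NT (Hwayoung) and 3242 in NT (Nipponbare), a ratio of -3.75 ± 0.14, and WRKY45 (Os05t0322900-01), a defence regulator of the salicylic acid pathway in rice, had 822 in NT (Hwayoung) and 3813 in NT (Nipponbare). MYB factors were higher in 8 of 101 cases (7.92%) and lower in 22 (21.8%). The bHLH factors were higher in 7 of 100 (7%) and lower in 22 (22%), and NAC factors higher in 4 of 51 (7.84%) and lower in 10 (19.6%). OsNAC6, a NAC factor, was not among those called, with a ratio of 0.48 ± 0.03.

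**Figure D3:**
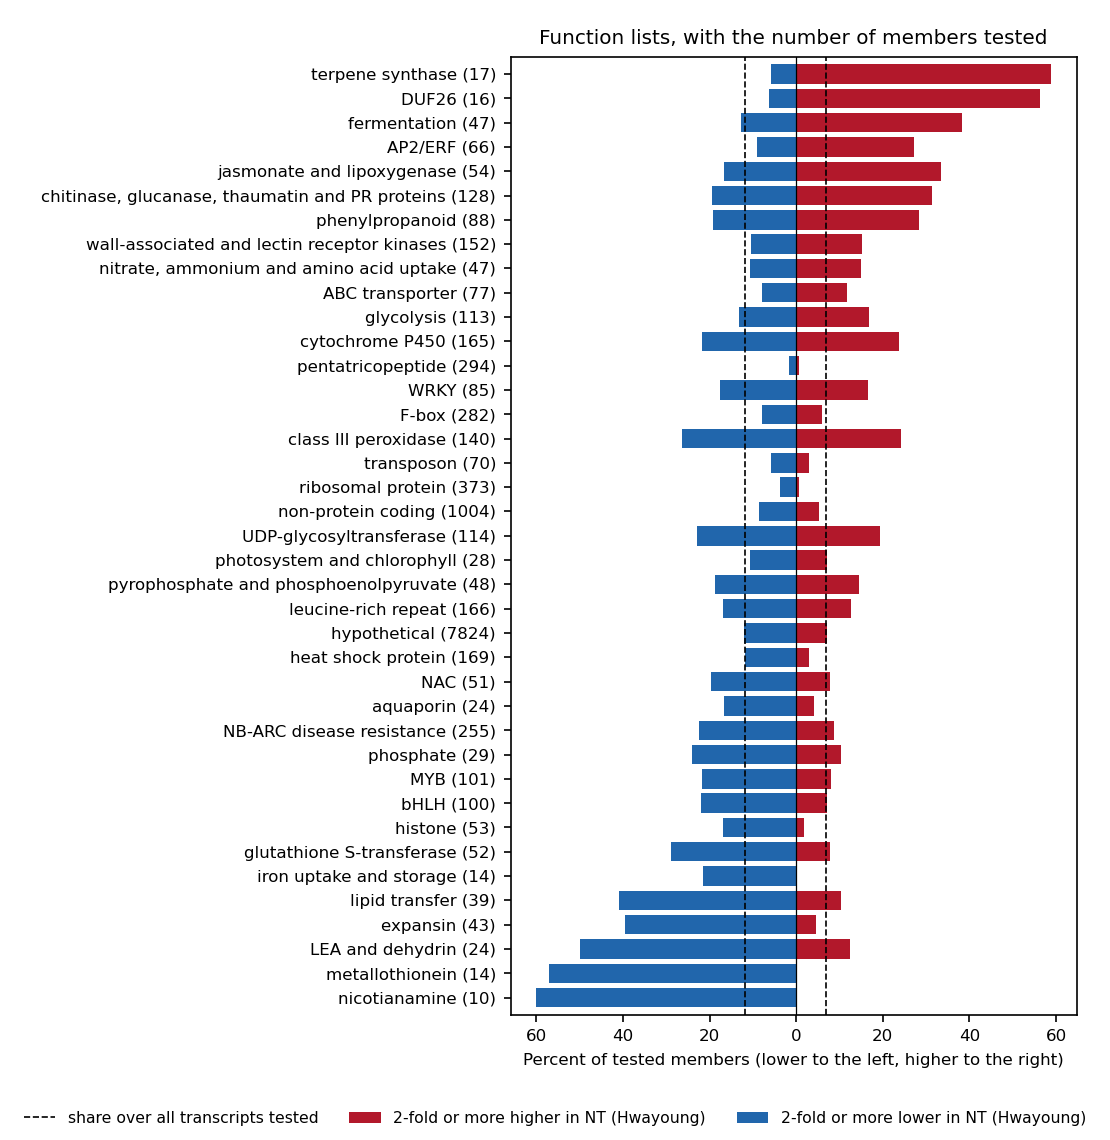
Percent of the tested members of each function list that were at least 2-fold higher (red, to the right) or lower (blue, to the left) in NT (Hwayoung), with the number of members tested in parentheses. The dashed lines mark the shares over all transcripts, 6.84% higher and 11.8% lower; terpene synthases reach 58.8% higher and nicotianamine enzymes 60% lower.

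Several lists of metal and wall genes leaned to the lower side. Nicotianamine, made from S-adenosylmethionine by nicotianamine synthase, chelates iron and is the precursor of the phytosiderophores with which grasses take up iron. Of 10 transcripts of nicotianamine synthases and aminotransferases, 0 were higher and 6 lower (60%, against 11.8% over all transcripts), with a median of -1.13. OsNAS1 (Os03t0307300-01) had 1034 reads in NT (Hwayoung) and 5695 in NT (Nipponbare), a ratio of -2.25 ± 0.07. OsNAS2 (Os03t0307200-01), its neighbour, had 1491 in NT (Hwayoung) and 7829 in NT (Nipponbare), a ratio of -2.19 ± 0.06. OsNAS3 (Os07t0689600-01) did not share this difference, with 448 in NT (Hwayoung) and 518 in NT (Nipponbare), a ratio of -0.02 ± 0.13. OsNAS1 and OsNAS2 are near copies and may share reads. In the other 3 libraries they were even further apart than the NT pair: OsNAS1 had 136 reads in the nac6-labelled library, 21064 in the RCc3::OsNAC6-labelled one and 22856 in the GOS2::OsNAC6-labelled one.

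The transcript annotated as an iron-phytosiderophore transporter (Os02t0650300-01), which takes the iron chelate into the root, had 59 reads in NT (Hwayoung) and 1111 in NT (Nipponbare), a ratio of -3.60 ± 0.20. Over the list of iron uptake and storage, 3 of 14 were lower (21.4%, against 11.8% over all transcripts) and 0 higher. Metallothioneins were lower in 8 of 14 cases (57.1%) and higher in 0, with a median of -1.18, and summed to 2404 RPM in NT (Hwayoung) and 4669 in NT (Nipponbare). Apart from the most abundant member given above, Os12t0568500-01 had 2304 reads in NT (Hwayoung) and 8060 in NT (Nipponbare), a ratio of -1.61 ± 0.05.

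Expansins, which loosen the wall in growing cells, were lower in 17 of 43 cases (39.5%) and higher in 2 (4.65%), with a median of -0.93. The shares over all transcripts were 11.8% lower and 6.84% higher. A beta-expansin (Os03t0102500-01) had 1304 reads in NT (Hwayoung) and 3538 in NT (Nipponbare). Lipid transfer proteins were lower in 16 of 39 cases (41.0%) and higher in 4 (10.3%). RCc3 (Os02t0662000-01) belongs to this family and lent its promoter to an overexpressor of the series; it had 206 RPM in NT (Hwayoung) and 637 in NT (Nipponbare), a ratio of -1.63 ± 0.03. Another member, Os07t0287400-01, had 814 reads in NT (Hwayoung) and 6708 in NT (Nipponbare), a ratio of -2.82 ± 0.07. The list was not uniform, since Os11t0484700-00 had 1245 reads in NT (Hwayoung) and 26 in NT (Nipponbare).

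Proteins of desiccation, LEA proteins and dehydrins, were lower in 12 of 24 cases (50%) and higher in 3 (12.5%), with a median of -1.26. The shares over all transcripts were 11.8% lower and 6.84% higher. Among members with a mean of at least 10 RPM the median was -0.14, so the list's lean rests on its scarce members. An LEA-like protein (Os05t0542500-02) had 109 reads in NT (Hwayoung) and 5259 in NT (Nipponbare), a ratio of -5.14 ± 0.16, and it was also low in the RCc3::OsNAC6-labelled library, with 344. The most abundant dehydrin (Os02t0669100-01) had 6333 in NT (Hwayoung) and 23238 in NT (Nipponbare), a ratio of -1.68 ± 0.03. Glutathione S-transferases, which conjugate toxic compounds, were lower in 15 of 52 cases (28.8%) and higher in 4 (7.69%). The most abundant of the lower ones (Os01t0764000-01) had 6495 reads in NT (Hwayoung) and 16327 in NT (Nipponbare).

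Nutrient uptake differed gene by gene. A high affinity nitrate transporter (Os02t0595900-00) had 595 reads in NT (Hwayoung) and 3737 in NT (Nipponbare), a ratio of -2.42 ± 0.09, and NRT2.5 (Os01t0704100-02) had 564 in NT (Hwayoung) and 1562 in NT (Nipponbare). In assimilation, NADH-dependent glutamate synthase (Os05t0555600-01), which passes nitrogen from glutamine to glutamate, had 3792 reads in NT (Hwayoung) and 142 in NT (Nipponbare), a ratio of 4.68 ± 0.15. A nitrate reductase (Os08t0468100-01) had 1508 in NT (Hwayoung) and 221 in NT (Nipponbare). Over this list 7 of 47 were higher (14.9%) and 5 lower (10.6%), against 6.84% and 11.8% over all transcripts. For phosphate, phosphate transporter 6 (Os04t0186400-01) had 261 reads in NT (Hwayoung) and 2043 in NT (Nipponbare). A purple acid phosphatase (Os10t0116800-01) had 3920 in NT (Hwayoung) and 247 in NT (Nipponbare). Of the 29 members, 3 were higher (10.3%) and 7 lower (24.1%). Among aquaporins, 1 of 24 was higher (4.17%), NIP3-2 (Os08t0152000-00), with 709 reads in NT (Hwayoung) and 42 in NT (Nipponbare). Another 4 were lower (16.7%), among them a tonoplast channel (Os02t0658100-01) with 3427 reads in NT (Hwayoung) and 11206 in NT (Nipponbare).

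Ribosomal proteins were higher in 2 of 373 cases (0.54%) and lower in 14 (3.75%), yet their median was -0.39 and their sum 27482.6 RPM in NT (Hwayoung) and 35972 in NT (Nipponbare). After the median-of-ratios shift of 0.14 that lean is smaller but keeps its sign. Pentatricopeptide proteins, which process organelle RNA, were higher in 2 of 294 cases (0.68%) and lower in 5 (1.70%). Heat shock proteins were higher in 5 of 169 and lower in 20 (11.8%, the same share as over all transcripts). Of the study's further genes, OsDEP (Os01t0101200-02) was at 0.03 ± 0.19 and GSHT (Os03t0751100-01) at -0.99 ± 0.08, just short of the call. GOS2 (Os07t0529800-01), whose promoter drove the other overexpressor, was at 0.93 ± 0.02. GAT (Os11t0679700-01), annotated as a phospholipid/glycerol acyltransferase domain protein, was higher, with 5251 reads in NT (Hwayoung) and 148 in NT (Nipponbare), a ratio of 5.10 ± 0.14.

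The other 3 libraries were used to see whether the difference returned in separate libraries of the same cultivar labels. They also differ in OsNAC6 genotype, and cultivar and genotype cannot be told apart in them. Growth or library preparation shared among the libraries of a cultivar label cannot be told apart from cultivar either. Of all transcripts tested, 7.38% were at least 2-fold above both overexpressor-labelled libraries in the nac6-labelled library and 12.7% were at least 2-fold below both. Of the 2139 transcripts higher in NT (Hwayoung), 1546 (72.3%) were above both, 3 below both and 590 neither. Of the 3687 lower ones, 2059 (55.8%) were below both, 29 above both and 1599 neither. These shares were far above the background for both directions, and the comparison uses neither NT library. The higher calls returned most often at the largest ratios: 218 of the 224 transcripts higher by 16-fold were also above both. The lower calls did the opposite, with 32 of the 77 lower by 16-fold also below both.

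The nac6-labelled library was on the side of NT (Hwayoung) in the following examples, at times well above it. Pyruvate decarboxylase Os05t0469600-01 had 18654 reads in the nac6-labelled library, 188 in the RCc3::OsNAC6-labelled one and 31 in the GOS2::OsNAC6-labelled one. The proton-pumping pyrophosphatase Os02t0802500-01 had 40308, 1352 and 204 in the same order. Chalcone synthase Os07t0501100-01 had 18195, 124 and 4, and DUF26 protein Os08t0136700-01 had 20335, 75 and 25, against 9394 and 6344 reads of these genes in NT (Hwayoung). In each of these the RCc3::OsNAC6-labelled library was above NT (Nipponbare) by several fold while it stayed far below both Hwayoung-labelled libraries. Of the members called higher, 16 of 18 in fermentation, 9 of 9 with a DUF26 domain and 8 of 10 in diterpenoid synthesis were at least 2-fold above both overexpressor-labelled libraries in the nac6-labelled one. Over all transcripts called higher the share was 72.3%, which the diterpenoid count is near.

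The NB-ARC immune receptors leaned to the lower side. Of 255 tested, 22 were higher (8.63%) and 57 lower (22.4%), with a median of -0.40. The shares over all transcripts were 6.84% higher and 11.8% lower. Os11t0227800-01 had 328 reads in NT (Hwayoung) and 1957 in NT (Nipponbare), a ratio of -2.31 ± 0.11, and Os11t0266500-01 had 754 in NT (Hwayoung) and 2862 in NT (Nipponbare), a ratio of -1.71 ± 0.08. Os09t0311600-01 went the other way, with 1297 in NT (Hwayoung) and 297 in NT (Nipponbare), a ratio of 2.22 ± 0.12. Of the 57 lower members, 29 were also at least 2-fold below both overexpressor-labelled libraries in the nac6-labelled library. This was near the share over all lower transcripts, 55.8%. Leucine-rich repeat proteins had 21 of 166 higher (12.7%) and 28 lower (16.9%), with a median of -0.24. Receptor kinases of the wall-associated, lectin and related classes leaned the other way by count, with 23 of 152 higher (15.1%) and 16 lower (10.5%). Their lower share was near the 11.8% over all transcripts.

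Some transcripts were present in one NT library and near 0 in the other. At most 3 reads in NT (Hwayoung) with at least 100 in NT (Nipponbare) were found for 150 transcripts of 134 loci, 0.584% of the 25693 with 100 reads in either library. The other direction, at least 100 reads in NT (Hwayoung) with 3 or fewer in NT (Nipponbare), held 76 transcripts of 75 loci, 0.296%. Counts of 3 reads correspond to 0.127 RPM in NT (Hwayoung) and 0.112 in NT (Nipponbare). The set near 0 in NT (Hwayoung) was concentrated by chromosome: 57 of its transcripts were on chromosome 11, 25 on chromosome 8 and 15 on chromosome 12. By locus these were 50, 22 and 14 of 134. Of the 25617 loci tested for a ratio, those chromosomes held 1411, 1657 and 1399 in that order. It held 14 NB-ARC transcripts (9.33%, against 0.782% of all transcripts with 100 reads in either library), 4 F-box transcripts (2.67% against 0.841%) and 72 hypothetical ones (48% against 21.8%). The set near 0 in NT (Nipponbare) was spread, with at most 11 on any chromosome, and held 25 hypothetical transcripts (32.9% against 21.8%) and 4 DUF26 transcripts (5.26% against 0.0545%).

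**Figure D4:**
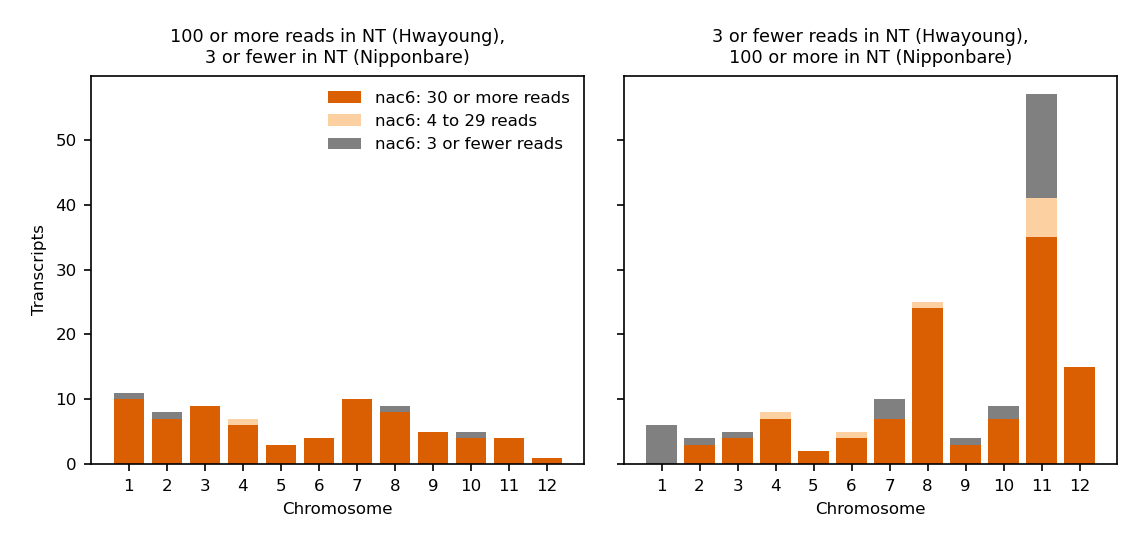
Number of transcripts per chromosome with at least 100 reads in NT (Hwayoung) and 3 or fewer in NT (Nipponbare), left, and the reverse, right, coloured by their reads in the nac6-labelled library. The right panel peaks at 57 on chromosome 11, and all 6 of its transcripts on chromosome 1 had 3 or fewer reads in the nac6-labelled library.

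The nac6-labelled library had reads for most of the set near 0 in NT (Hwayoung). Whether the libraries labelled Hwayoung share a genetic background was not tested. Of the 150 transcripts, 111 had at least 30 reads in it, 30 had 3 or fewer and 9 lay between, and 139 had at least 30 in both overexpressor-labelled libraries. Over all 150 the median level in the nac6-labelled library was 0.514 of that in NT (Nipponbare), at 0.914 on chromosome 8, 0.972 on chromosome 12, 0.221 on chromosome 11 and 0.187 on chromosome 4, while on chromosome 1 all 6 transcripts had 3 or fewer reads in it. A transcript annotated as a Mov34/MPN/PAD-1 family protein (Os07t0543700-01), the lowest ratio in the comparison at -7.00 ± 0.17, showed this pattern though its 6 reads in NT (Hwayoung) kept it just outside the set. It had 2665 reads in the nac6-labelled library, 6 in NT (Hwayoung), 4682 in the RCc3::OsNAC6-labelled one, 4955 in the GOS2::OsNAC6-labelled one and 4274 in NT (Nipponbare). Germin-like protein 8-12 (Os08t0231400-01), annotated with disease resistance, had 1137, 6, 2724, 2148 and 2894 in that order. A DUF3778 protein (Os08t0195400-01) had 2156, 10, 2122, 2941 and 2465. Only NT (Hwayoung) stood apart in these 3.

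Other transcripts were near 0 in both Hwayoung-labelled libraries. A conserved hypothetical transcript (Os07t0297400-01) had no read in either Hwayoung-labelled library. It had 2225 in the RCc3::OsNAC6-labelled one, 3714 in the GOS2::OsNAC6-labelled one and 3070 in NT (Nipponbare). At the floor of 3 reads it was at least 899-fold lower in NT (Hwayoung). A group of neighbouring loci of chromosome 1 did the same. Among them was an NBS-LRR protein (Os01t0781100-01) with no read in either Hwayoung-labelled library and 357, 204 and 432 in the others in that order. Some lay between. A calmodulin-binding-like protein (Os11t0669100-01) had 398 reads in the nac6-labelled library, 0 in NT (Hwayoung), 1581 in the RCc3::OsNAC6-labelled one, 1881 in the GOS2::OsNAC6-labelled one and 3034 in NT (Nipponbare). A protein kinase (Os11t0694100-01) had 422, 0, 1332, 1274 and 2238 in the same order.

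Of the 76 transcripts near 0 in NT (Nipponbare), 71 had at least 30 reads in the nac6-labelled library and 4 had 3 or fewer, and 0 had at least 30 in both overexpressor-labelled libraries. The RCc3::OsNAC6-labelled library had at least 30 for 12 of them and 3 or fewer for 21, and the GOS2::OsNAC6-labelled one at least 30 for 0 and 3 or fewer for 51, so that 18 were at 3 or fewer in both. The largest by reads were Os08t0136300-01 and its neighbours in the chromosome 8 run that holds DUF26 proteins. An early nodulin (Os06t0141600-01) followed, with 3004 reads in NT (Hwayoung) and 1 in NT (Nipponbare). A cysteine proteinase inhibitor (Os09t0255200-00) had 2999 reads in NT (Hwayoung) and 2 in NT (Nipponbare), and a class III chitinase (OsChib3H-c, Os11t0701000-01) had 2903 in NT (Hwayoung) and 2 in NT (Nipponbare). In the nac6-labelled library the early nodulin had 1746 reads, the inhibitor 10631 and the chitinase 4789, and each was under 100 in both overexpressor-labelled libraries.

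Along the chromosomes both kinds of call were uneven, and chromosome 11 held the largest share of lower loci. The share of tested loci lower in NT (Hwayoung) was 21.0% on chromosome 11, 15.9% on chromosome 8 and 14.9% on chromosome 12, and between 11.3% and 13.4% on the other 9. By 4-fold, 8.29% of the loci of chromosome 11 and 4.71% of those of chromosome 8 were lower, and 3.22% or less elsewhere. The share higher ran from 5.82% to 9.17%. In blocks of 50 tested loci in order of locus number, a median of 6 were lower and 3 higher. Of 506 blocks, 4 held 15 or more higher loci and 17 held 15 or more lower loci, and 9 of these 17 were among the 28 blocks of chromosome 11.

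**Figure D5:**
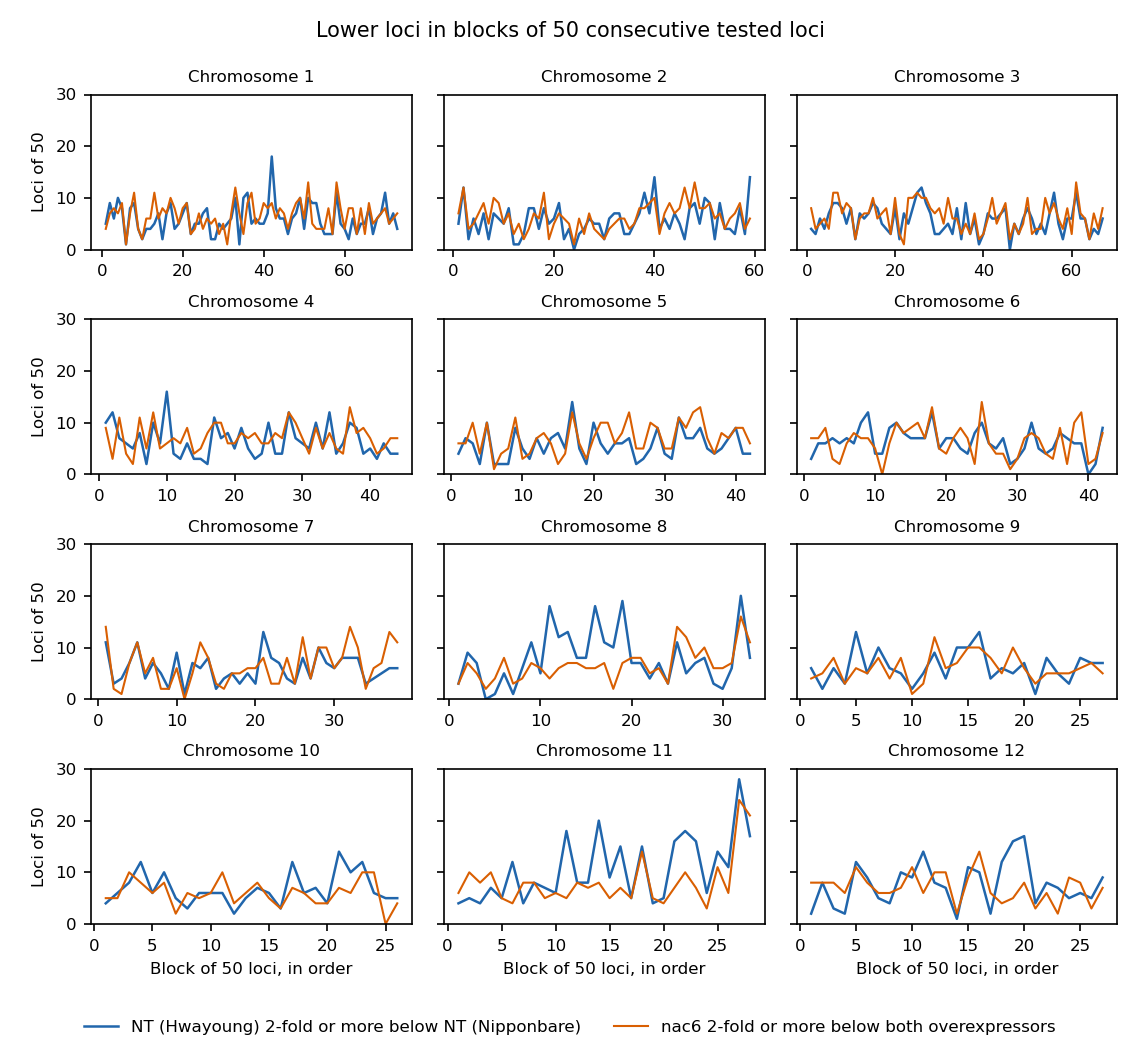
Number of loci per block of 50 consecutive tested loci, in order along each of the 12 chromosomes, that were at least 2-fold lower in NT (Hwayoung) than in NT (Nipponbare) (blue) or at least 2-fold lower in the nac6-labelled library than in both overexpressor-labelled libraries (orange). Both lines peak together at the end of chromosome 11, at 28 and 24 loci, whereas the blue peaks in the middle of chromosome 8 have no orange counterpart.

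The block with the most lower loci ran from Os11g0673600 to Os11g0692000, with 28 lower and 2 higher, and the nac6-labelled library was below both overexpressor-labelled libraries at 24 of its loci. The next block, Os11g0693750 to Os11g0706200, was mixed, with 17 lower and 15 higher, so that the whole run from Os11g0685100 to Os11g0702400, a stretch of kinases, NB-ARC proteins and chitinases, gave 28 lower and 15 higher of 62 loci. Block Os08g0552000 to Os08g0558000 held 20 lower loci, and the nac6-labelled library was below both at 16. In block Os08g0406150 to Os08g0421900, 19 were lower but the nac6-labelled library was below both at 7, and it was at least 2-fold above NT (Hwayoung) at 17 of the 50. Block Os08g0229601 to Os08g0243500 was alike, with 18 lower, 4 below both and 17 above NT (Hwayoung). The last count shares the NT (Hwayoung) library with the first and is given beside it only. Higher loci reached 19 of 50 in block Os07g0120400 to Os07g0127900, where the nac6-labelled library was above both at 17.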

How the data were processed

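Total RNA of roots was made into strand-specific libraries with a modified TruSeq method and sequenced on a HiSeq 2000. Per the labels the reads were placed on build IRGSP-1.0, a Nipponbare genome; the aligner and counter are not given in the sources used here. The deposited signal values are counts per transcript that the authors divided by DESeq size factors and averaged over 2 count columns of each library; every value in both columns came back as a whole number of reads, and both columns were summed as repeat counts of 1 library. The deposited tables also hold the authors' fold changes and p-values, which were not used.

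Transcripts were joined by identifier with absent ones set to 0, scaled to RPM, given a pseudocount of 1 and kept at a mean of at least 1 RPM. Counting errors came from the reads with the variance multiplied by 2; they cover counting error only. The 95% intervals of all 2139 higher and 3687 lower calls lay on 1 side of 0. A 2-fold call cannot do otherwise with this pseudocount, filter and depth, so this is no check of the calls. A count of 0 was set to a floor of 3 reads per library before a fold was taken. Function groups are 41 lists matched by words of the function text. Their members are transcripts, so isoforms of the same locus count apart. Locus numbers, which rise along a chromosome, gave order and chromosome; no coordinates or sequences were used.

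The text names genes the study gives with a locus and the 10 most abundant transcripts of each library. It also names the 10 highest and 10 lowest ratios at a mean of at least 10 RPM. Further members are 2 higher and 2 lower ones of each list by mean, and the 10 transcripts present in 1 NT library with most reads. The neighbouring runs, blocks, other transcripts present in 1 NT library and the opposite transcripts were picked after their values were seen. Members and lists were chosen with earlier results of these data known. Scripts used Python 3.11.15, numpy 2.4.6, pandas 2.3.3, scipy 1.17.1 and matplotlib 3.10.9 and were tested on simulated data.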

Additional observations from a re-analysis of the deposited data

Results flagged for a closer look

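A few transcripts differed between the NT libraries in one direction and, in the other 3 libraries, in the opposite direction by cultivar label; the difference between these contrasts was not tested. Of the transcripts higher in NT (Hwayoung), 3 were at least 2-fold below both overexpressor-labelled libraries in the nac6-labelled library. A pair of them belong to an En/Spm-type transposon locus: Os06t0271500-01 had 0 reads in the nac6-labelled library, 449 in NT (Hwayoung), 510 in the RCc3::OsNAC6-labelled one, 223 in the GOS2::OsNAC6-labelled one and 156 in NT (Nipponbare). The third, a UDP-glucosyltransferase (Os11t0444000-01), had 2, 135, 45, 39 and 42 in that order.

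Of the transcripts lower in NT (Hwayoung), 29 were at least 2-fold above both overexpressor-labelled libraries in the nac6-labelled library. Chromosome 12 held 11 of them, from 10 loci, and it held 1399 of the 25617 loci tested. Os12t0541200-02, a conserved hypothetical protein, had 1951 reads in the nac6-labelled library, 2 in NT (Hwayoung), 647 in the RCc3::OsNAC6-labelled one, 728 in the GOS2::OsNAC6-labelled one and 649 in NT (Nipponbare). A protein kinase (Os11t0691100-00) had 3176, 0, 6, 3 and 1779 in that order, so that it was near 0 in NT (Hwayoung) and in both overexpressor-labelled libraries but not in NT (Nipponbare).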

How the results depend on the processing

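No paired analysis was possible because each group had 1 library. Of the 2139 higher and 3687 lower calls, a pseudocount of 5 RPM left 1395 higher and 1608 lower, a filter at a mean of 10 RPM left 1259 and 1677, and a 4-fold threshold left 826 and 669. An exact binomial test of the halved reads, which compares these 2 libraries and not the cultivars, called 5910 higher and 12129 lower. Median-of-ratios scaling gave 2487 and 3069, a pseudocount of 0.1 gave 2518 and 4880, and no filter, summed isoforms and either count column alone stayed within 1.5 times. Transcripts that returned in the other 3 libraries numbered 622 higher and 163 lower at 4-fold and 959 and 1062 with the filter at 10. Those going the opposite way numbered 0 and 4 at 4-fold and 10 on the lower side with the filter at 10. With the nac6-labelled library set against the RCc3::OsNAC6-labelled one alone (an alternative added with the values known) they numbered 16 and 96, and against the GOS2::OsNAC6-labelled one alone 6 on the higher side. The set present only in NT (Hwayoung) fell to 42 when 0 reads were required in NT (Nipponbare), and the set present only in NT (Nipponbare) grew to 248 when 50 reads sufficed. Of the named ratios under their alternatives, 740 stayed within their 95% counting interval and 195 moved beyond it, and of the list medians 184 stayed within a log2 tolerance of 0.25 and 21 moved beyond it. None of the named ratios that were called, and no list median of at least 0.5 in size, changed sign. For the called ratios most alternatives could not have changed it. A new pseudocount keeps the sign, and the scaling shift of 0.14 is too small. Depth limits transcripts near 1 RPM most (the median counting error over all ratios was 0.157 on the log2 scale), and no depth stands in for a second library per cultivar.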
